A study of Mus musculus with 2 samples.

Results

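Mir22 is a microRNA (miRNA) gene, counted here in the gastrocnemius muscle of the calf. The mice were adult females of B6CASTF1/J, an F1 hybrid strain, and were 18 to 20 months of age. It was chosen by name, as the 1 gene of 2202 miRNA genes in the files whose Ensembl identifier carries the symbol Mir22, and it was singled out because of its high level and its unequal level in the libraries. Its level and its ratio between the libraries are therefore descriptions, with no test. The series holds 2 microRNA-seq libraries in 1 group, numbered by the labels as biological replicates 1 and 2. No treatment, mutation or transgene is named. The libraries have separate tissue sample entries but the same donor entry, so it is not settled that they come from separate animals, and their spread may be technical. Short RNAs were read and counted on miRNA genes, and the sense gene counts summed to 865419 in replicate 1 and 2177048 in replicate 2.

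A miRNA is cut from a hairpin RNA into a mature strand that guides Argonaute proteins to messenger RNAs, mainly by pairing of its seed, the bases 2 to 8. Mir22 is found in many tissues and is abundant in heart and skeletal muscle. In the heart it is known for its part in hypertrophy, with Sirt1 and Hdac4 among its reported targets, and it has been linked to cellular senescence. None of these targets was measured here.

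Mir22 (ENSMUSG00000065529.1) lies on mm10 chromosome 11, 75463716 to 75463810, plus strand. In the GENCODE M21 annotation it sits inside exon 2 (75463693 to 75463857) of its noncoding host gene Mir22hg. The other annotated transcript of Mir22hg over this site holds it in exon 2 as well. A noncoding transcript of the overlapping protein-coding gene Tlcd2 carries the same exon. The gene is thus exonic in every overlapping transcript, and no coding sequence or UTR is annotated over it. The sequences are shown because they decide whether reads of Mir22 can be told from those of other miRNAs. They come from RefSeq (GRCm38.p6), 5′ to 3′. In the hairpin, capitals mark the mature arms, first miR-22-5p and then miR-22-3p, and in the mature sequences they mark the seed.
Mir22 hairpin: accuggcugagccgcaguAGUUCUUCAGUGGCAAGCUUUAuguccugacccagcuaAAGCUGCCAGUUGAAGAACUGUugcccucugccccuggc
miR-22-3p: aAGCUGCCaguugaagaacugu
miR-22-5p: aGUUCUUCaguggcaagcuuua
miR-206-3p: uGGAAUGUaaggaagugugugg
let-7i-5p: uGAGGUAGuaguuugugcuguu
let-7g-5p: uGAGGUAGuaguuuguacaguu

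Mir22 had no relative by seed among the RefSeq entries. Of 1738 mature entries from 1058 genes, none from another gene had the seed AGCUGCC of miR-22-3p or the seed GUUCUUC of miR-22-5p. This is common in the table, since 84.5% of 1398 distinct seeds belonged to 1 gene. The let-7 genes Mirlet7i and Mirlet7g stand next in level and show the opposite case, with a seed that 12 other genes of the table carry. The table lacks mature entries of some genes, such as Mir378a and Mir143, so genes that share a seed can be missed. Over bases 2 to 7 alone, 2 other genes matched miR-22-5p and 0 matched miR-22-3p. The longest run of bases shared with any other miRNA hairpin was 11 for miR-22-3p and 10 for miR-22-5p. Each arm in full was found in 141767 annotated transcripts only under Mir22, Mir22hg and Tlcd2, which overlap at this site. The counts leave out reads that map to several places, so a gene with a near copy is undercounted. No such copy of Mir22 was found among annotated transcripts, and no genome sequence was searched.

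The hairpin of 95 bases had a predicted minimum free energy of -41.9 kcal/mol with 36 base pairs (RNAfold). In that predicted fold, 21 of the 22 bases of miR-22-3p were paired, 19 of them to miR-22-5p, and all 7 seed bases were paired. The GC content of the hairpin was 55.8%, and 4 of the 20 genes nearest to Mir22 in level had a higher one (range 38.6% to 68.2%). The files count reads per gene, so the arms cannot be told apart by their levels.

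Mir22 was among the most counted miRNA genes of this muscle, at 71720 ± 52389 CPM (SD, n = 2), and ranked 3 by mean CPM. Reads that map to several places, 80.7% of reads in replicate 1 and 71.0% in replicate 2, are left out. Its level, share and rank therefore hold among the counted reads only. CPM is the count per 1000000 sense gene counts of the library. Replicate 1 held 30009 counts, or 34676 CPM, and replicate 2 held 236786 counts, or 108765 CPM. The share of Mir22 in gene counts was 3.47% for replicate 1, with a 95% Clopper-Pearson (exact) interval of 3.43 to 3.51. For replicate 2 it was 10.9%, with an interval of 10.8 to 10.9. The reads carry no molecular identifiers and are not independent molecules, so the intervals hold counting error and nothing else. The level was high in replicate 2 and lower in replicate 1, and the gap was far wider than either interval. All of these reads lay on the sense strand. The antisense column held 0 counts at Mir22 in both libraries, and a count of 0 allows up to 3 counts, or 0.0100% of the sense count in replicate 1 and 0.00127% in replicate 2.

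Mir22 ranked 12 in replicate 1 and 2 in replicate 2. In replicate 1, 11 genes stood above it, and in replicate 2 only Mir378a did. The other 10 genes that it passed include Mir143 of smooth muscle, Mir126a of endothelium, the let-7 genes Mirlet7i and Mirlet7g, and Mir206 of skeletal muscle.

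**Figure D1:**
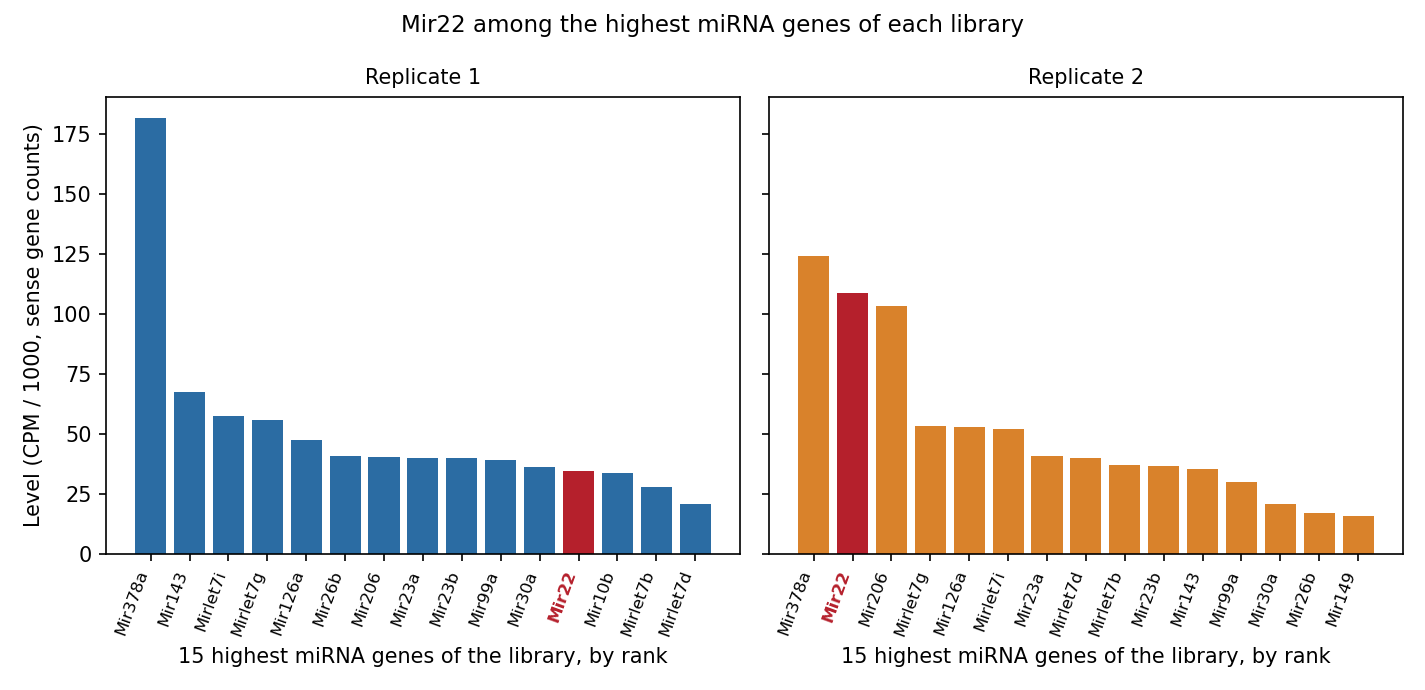
The 15 highest miRNA genes of each library (x axis, in order) against their level in CPM divided by 1000 (y axis, from 0), with Mir22 in red. Mir22 stands at rank 12 with 34676 CPM in replicate 1 and at rank 2 with 108765 CPM in replicate 2, between Mir378a and Mir206.

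Most of the order of levels around Mir22 was not settled by these libraries. Mir206, at 71810 ± 44437 CPM, differed from Mir22 by 90.1 CPM in the mean, far less than the spread of either gene. Their order changed between the libraries, at 0.859 counts of Mir22 per count of Mir206 in replicate 1 and 1.05 in replicate 2. Of the 12 genes nearest in rank by mean CPM, 11 had values in the libraries that overlapped those of Mir22. Mir378a, at 181375 and 123976 CPM, was the exception, and both of its values lay above both of Mir22. Mirlet7i, the next gene down at 54697 ± 3713 CPM, and Mirlet7g, at 54599 ± 1760 CPM, lay between the values of Mir22. So did Mir143 (51346 ± 22915 CPM), Mir126a (50123 ± 4023 CPM) and the related Mir23a (40390 ± 493 CPM) and Mir23b (38061 ± 2394 CPM). Mir99a (34534 ± 6657 CPM), Mirlet7b (32318 ± 6549 CPM), Mirlet7d (30413 ± 13441 CPM) and Mir26b (29004 ± 16700 CPM) reached into its range with 1 library only. This overlap compares values across libraries. Inside each library Mir22 stood above Mirlet7b, at 1.25 and 2.94 counts per count of that gene. It also stood above Mirlet7d, at 1.66 and 2.72.

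The level of Mir22 in replicate 2 was 3.14 times that in replicate 1 (95% exact interval 3.10 to 3.17, counting error only), a log2 ratio of 1.65. Across the 305 genes that averaged 10 counts or more, 37.7% had a ratio of at least 2 in either direction, 30.5% toward replicate 2 and 7.21% toward replicate 1. A ratio past 2 was therefore no rarity in this pair of libraries. The filter is on raw counts, of which replicate 2 had more, so genes of few counts can pass it through replicate 2 alone. Without a filter, 119 of 606 genes were past 2 toward replicate 2 and 175 toward replicate 1, with counts of 0 entered as 3. That entry can set the direction for genes of few counts. Mir9-1, at 0 counts in replicate 1 and 2 in replicate 2, falls toward replicate 1 in this way. The unfiltered split is therefore not read as a direction. At a mean of at least 100 counts, 37 of 170 were past 2 toward replicate 2 and 13 toward replicate 1. The median tested gene had a log2 ratio of 0.43, which leaves Mir22 1.21 above it, and 82.6% of tested genes had a smaller absolute ratio than Mir22. Just below Mir22 stood Mir702, at 5 and 39 counts and a ratio of 3.10 (1.22 to 10.1). Just above stood Mir128-2, at 41 and 325 counts and a ratio of 3.15 (2.27 to 4.47).

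Genes with a larger ratio toward replicate 2 than Mir22 were all far less abundant. Mir22 ranked 3 by mean CPM, so nearly every other gene lies below it whatever its ratio. The genes with a larger ratio numbered 45, with a median of 29.4 mean CPM. Ratios of few counts spread widely, and some of these genes passed the filter through replicate 2 alone, such as Mir208a at 1 and 74 counts. The most abundant of them, the imprinted Mir127, ranked 48 by mean CPM at 1474 ± 1114 CPM with values of 686 and 2261 CPM. Mir22 was 48.7 times as high in the mean.

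Among genes of similar level, Mir22 had the largest ratio toward replicate 2. The 20 genes nearest in log2 mean CPM ran from Mir378a at 152675 CPM to Mir30d at 9467 CPM, 2 above Mir22 and 18 below. Because Mir22 stands near the top, this window reaches 7.58-fold down. Their median log2 ratio was -0.13, and their ratios ran from 0.281 (Mir10b) to 2.82 (Mir149), with 8 genes higher in replicate 2 and 12 higher in replicate 1. That split follows the scaling: with DESeq2 size factors 4 were higher in replicate 2, and with all reads in the file as the total 13 were. Of these 20 genes, 5 (25%) passed a ratio of 2, against 37.7% of all tested genes. Higher in replicate 2 were Mir206, at a ratio of 2.56, and Mir149, at 2.82. Higher in replicate 1 were Mir10b of the Hoxd cluster, 3.56-fold, the injury and fibrosis miRNA Mir21a, 3.04-fold, and Mir26b, 2.37-fold. With scaling to gene counts, Mir10b alone of the 20 had a larger absolute ratio than Mir22. With TMM 3 genes did, with DESeq2 size factors 4, with the unstranded column 2 and with all reads as the total 0. Only Mir206 passed a ratio of 2 among the 10 nearest genes. It still did under TMM scaling but not with DESeq2 size factors. Under either of these scalings, Mir143 and Mir30a of the 20 genes were also past a ratio of 2, being higher in replicate 1. Mir22 kept the largest ratio toward replicate 2 of this window with every scaling, since scaling shifts all genes alike.

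**Figure D2:**
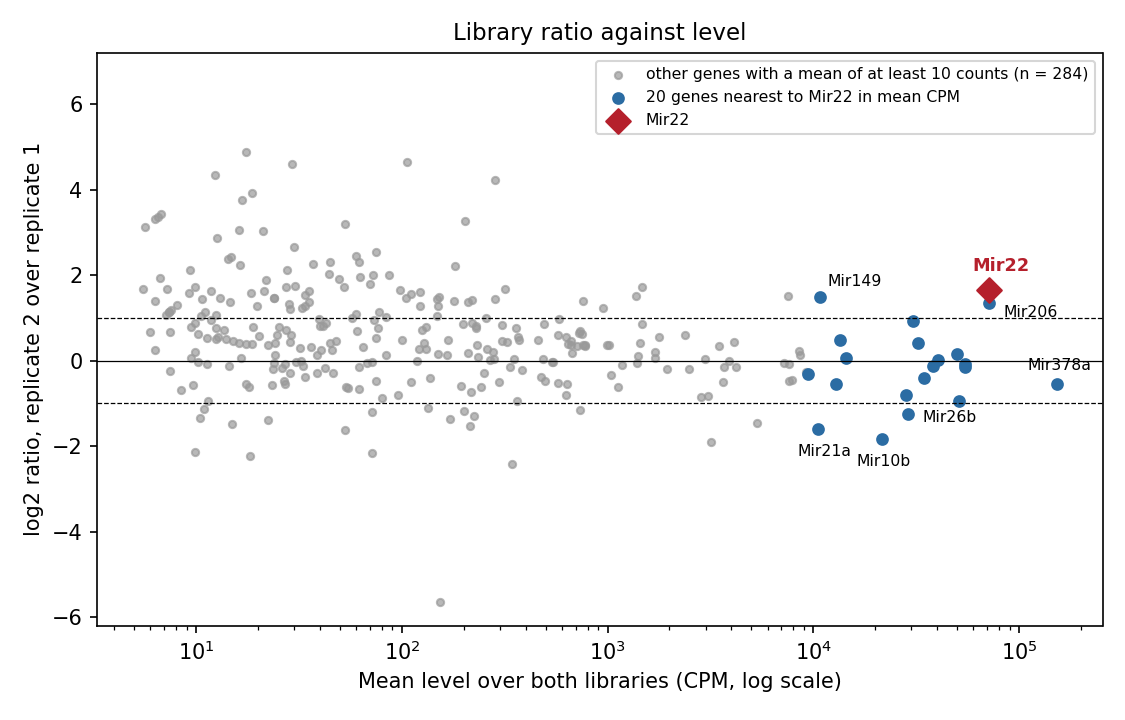
Log2 ratio of replicate 2 over replicate 1 (y axis) against mean CPM on a log scale (x axis) for the 305 tested genes; dashed lines mark a ratio of 2 either way. Mir22 (red diamond, 1.65) lies above the 20 genes nearest in level (blue), and all genes above it in ratio lie at 1474 CPM or less.

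The same values can be given inside each library, with no scaling to a library total. In replicate 1 there were 0.191 counts of Mir22 per count of Mir378a, the muscle and fat miRNA of the Ppargc1b locus, and in replicate 2 there were 0.877. Against Mirlet7i the values were 0.605 and 2.09, and against Mir126a they were 0.733 and 2.05. Against Mir143 they were 0.513 and 3.09. In replicate 1 Mir22 had fewer counts than each of these 4 genes, and in replicate 2 it had more than each but Mir378a. Over the 20 genes the value in replicate 2 was 1.11 (Mir149) to 11.2 times (Mir10b) that in replicate 1, with a median of 3.44. That all 20 lie above 1 restates that Mir22 had the largest ratio among them. Mir378a, Mir23a and Mir23b each have a run of 20 bases in common with a further hairpin and can be undercounted, so their place relative to Mir22 holds for these counts only.

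**Figure D3:**
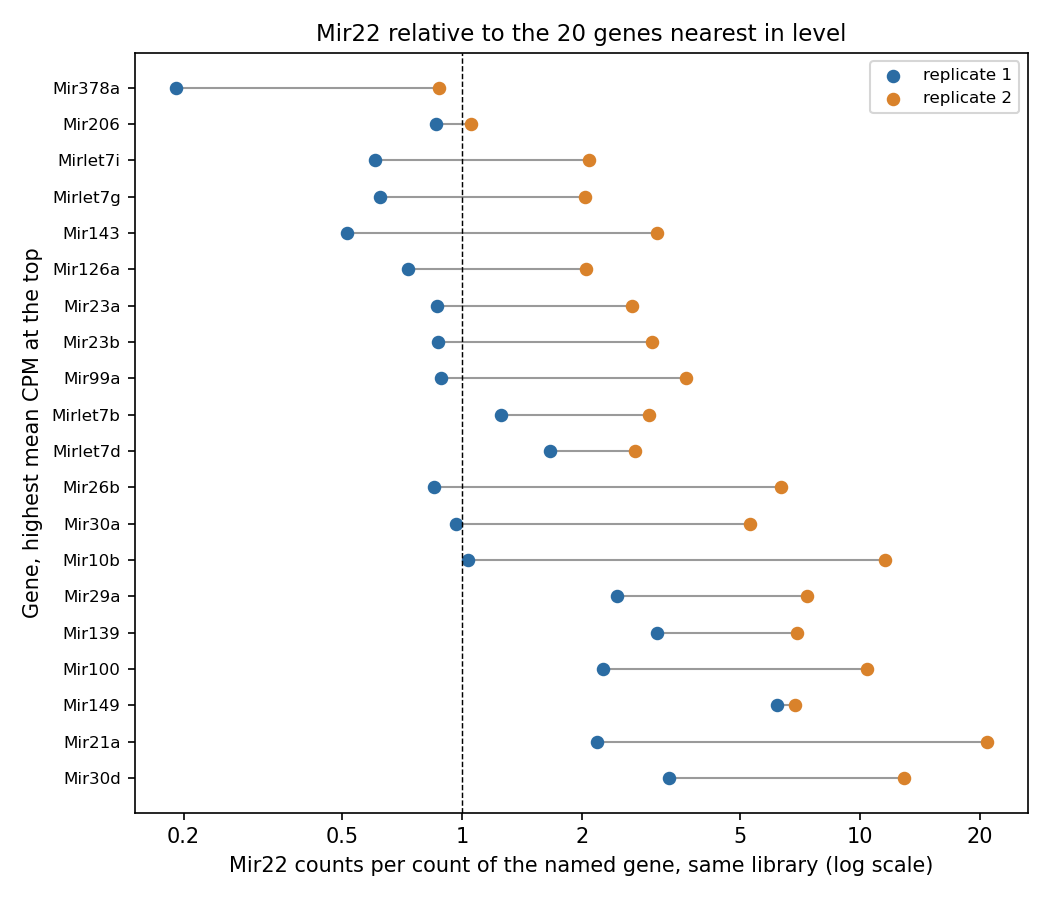
Counts of Mir22 per count of each of the 20 genes nearest in level (x axis, log scale; dashed line at equal counts), in replicate 1 (blue) and replicate 2 (orange), genes ordered by mean CPM (y axis). Every orange point lies to the right of its blue point, with the smallest steps for Mir149 (6.18 to 6.87) and Mir206 (0.859 to 1.05).

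Mir206 was the gene most like Mir22 over both libraries, by the Euclidean distance of log2(CPM + 1) over the 2 libraries. Its distance was 0.23, with 40388 CPM for replicate 1 and 103232 CPM for replicate 2. The next genes were Mir126a (1.13), Mirlet7g (1.24), Mirlet7i (1.29) and Mir23a (1.43), which had similar levels but ratios between 0.908 and 1.12. With 2 libraries, such a likeness describes these values and nothing more.

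No other well-counted miRNA gene lies close to Mir22 on the chromosome. Of 5 other miRNA genes within 1 Mb, Mir3971 (87.6 kb away), Gm47300 (145 kb) and Mir6926 (596 kb) had 0 sense counts in both libraries, which allows up to 3.47 CPM in replicate 1 and 1.38 CPM in replicate 2. The linked pair Mir212 and Mir132, activity-induced miRNAs that also act in the heart, lies 290 kb away on the same strand. Mir132 had 148 and 743 counts, or 171 and 341 CPM, a log2 ratio of 1.00 that fell just short of a ratio of 2 (interval 1.67 to 2.40). Mir212 had 6 and 28 counts, a ratio of 1.86 (0.754 to 5.48). Both were thus higher in replicate 2 by CPM, and Mir132 by less than Mir22. The interval for Mir212 spans both equal levels and the ratio of Mir22.

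Of the other miRNAs of striated muscle, those of the myosin genes and Mir206 were past a ratio of 2 toward replicate 2 with scaling to gene counts, as Mir22 was. Of 9 list members, 8 averaged 10 counts or more. Of these, 4 were past a ratio of 2 toward replicate 2, 0 toward replicate 1, and 4 were within it, with a median log2 ratio of 0.97. Over all tested genes, 30.5% were past it toward replicate 2 and 7.21% toward replicate 1, with a median of 0.43. With 8 genes, nothing is read from the difference. With DESeq2 size factors Mir206 dropped out. With TMM as well as with DESeq2 size factors, Mir1a-2 passed a ratio of 2 toward replicate 1. Mir499 of the slow myosin gene Myh7b stood at 153 and 416 CPM, a ratio of 2.73 (2.27 to 3.30). Mir208b of Myh7, at 25 and 1177 counts, and Mir208a of Myh6, at 1 and 74 counts, had larger ratios, 18.7 (12.6 to 29.0) and 29.4 (5.12 to 1177). Mir208a passed the filter through replicate 2 alone. Mir1a-2 stood at 270 and 162 CPM and went the other way, with a ratio of 0.600. Each of the 5 genes of Mir1a and Mir133 has a run of 20 or more bases in common with a further hairpin, which makes their counts minimum values. Their order relative to Mir22 is therefore not read from these counts.

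miRNAs of heart and muscle growth or wasting were past a ratio of 2 in 4 of 13 cases, near the background of 37.7%. Of 14 list members, 13 had enough counts. Of these, 3 were past a ratio of 2 toward replicate 2 (Mir499, Mir208a and Mir24-2), 1 toward replicate 1 (Mir199a-2, at 13 counts in each library) and 9 within it, against 62.3% of all tested genes within it. Their median log2 ratio was 0.06, and it was -0.22 with TMM and -0.36 with DESeq2 size factors, where Mir24-2 dropped out and Mir30a and Mir29c passed a ratio of 2 toward replicate 1. With all reads as the total, 5 were past a ratio of 2 toward replicate 2, Mir132 and Mir212 among them. Mir29a, a repressor of collagen genes, stood at 14193 and 14792 CPM, Mir195a at 1418 and 1374 CPM and Mir27a at 862 and 1118 CPM. Mir30a (35938 and 20632 CPM) and Mir29c (3672 and 2046 CPM) were lower in replicate 2, as was Mir378a. Of the 14 members, 7 have a run of 20 or more bases in common with a further hairpin, among them Mir24-2, Mir199a-2 and Mir29c. The counts of these genes are minimum values, and their ratios rest on the counted reads only.

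No senescence miRNA was past a ratio of 2 toward replicate 2, except that Mir34a and Mir181a-2 were with all reads as the total. Of 9 members, 8 had enough counts. Of these, 1 was past a ratio of 2 toward replicate 1 (Mir21a) and 7 were within it, with a median log2 ratio of 0.05. Of all tested genes, 37.7% were past it, 30.5% toward replicate 2, and with 8 genes nothing is read from the difference. The median was -0.24 with TMM and -0.37 with DESeq2 size factors. Mir34a, the p53 target, stood at 460 and 694 CPM, a ratio of 1.51 (1.35 to 1.69). Mir146, a brake on inflammatory signalling, stood at 478 and 490 CPM, and Mir181a-2 stood at 166 and 293 CPM. Of the 9 members, 3 have a run of 20 or more bases in common with a further hairpin. Mir146 and Mir181a-2 are among them, and their counts are minimum values. The lists share members (Mir208a, Mir499, Mir30a, Mir29a and Mir195a), so their counts are not independent.

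**Figure D4:**
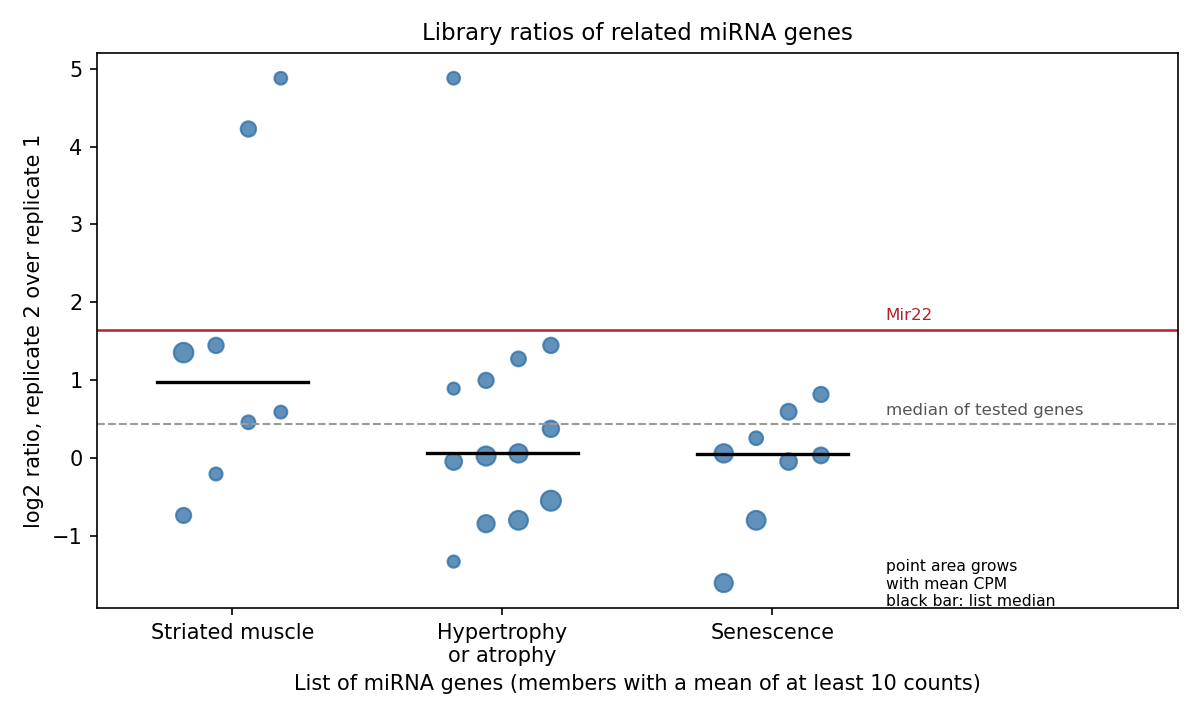
Log2 ratio of replicate 2 over replicate 1 (y axis) for the tested list members (points; area grows with mean CPM) in the 3 lists (x axis), with each list's median (black bar), the median of the 305 tested genes (dashed, 0.43) and Mir22 (red line, 1.65). The striated muscle median of 0.97 lies above the dashed line, and the other list medians, 0.05 and 0.06 with scaling to gene counts, lie below it.

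The libraries also differed in makeup. Multimapping reads made up 80.7% of the reads of replicate 1 and 71.0% of those of replicate 2. As a share of all reads in the file, Mir22 took 0.436% in replicate 1 and 1.97% in replicate 2, a 4.53-fold difference. The striated muscle markers of the labelled tissue were all detected (6 of 6) and held 4.07% of gene counts in replicate 1 and 10.4% in replicate 2. Nearly all of this was Mir206, and the other 5 markers, which can be undercounted, summed to 0.0355% and 0.0269%. The slow fibre markers (2 of 2 detected) held 0.0181% and 0.0956%, and the fibroblast markers (4 of 4) held 0.0633% and 0.138%. Mir214 carried the fibroblast sum, and the other 3, which can be undercounted as well, held 0.00693% and 0.00478%. Smooth muscle markers (2 of 2) held 7.54% and 3.80%, while endothelium (1 of 1) took 4.73% and 5.30% and leukocytes (6 of 6) took 0.444% and 0.493%. Of the leukocyte markers, Mir142 (246 and 96.0 CPM) and Mir223 (278 and 123 CPM) were past a ratio of 2 toward replicate 1. The other 4 were within it: Mir155 (1432 and 2120 CPM), Mir150 (1663 and 1746 CPM), Mir146 (478 and 490 CPM) and Mir342 (344 and 355 CPM). Without Mir155, the leukocyte markers held 0.301% and 0.281%. Of 6 neural markers, 4 were at 0 in both libraries, and the others summed to 1 and 5 counts. All 6 have a run of 20 or more bases in common with a further hairpin. They can be undercounted, so their absence is not read from these counts. Liver Mir122 held 0.00104% and 0.00951%, the erythroid markers (2 of 2) held 0.0230% and 0.0316%, and the epithelial markers (7 of 7) held 0.0342% and 0.0270%. Mir203 had most of the epithelial counts in replicate 1, and the other 6 epithelial markers held 0.00243% and 0.0141%. The part of these differences in the ratio of Mir22 was not tested. In bulk tissue, fewer cells of a type and less RNA per cell cannot be told apart.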

How the data were processed

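MicroRNA-seq libraries of total RNA from 2 tissue samples of 1 group were analysed. The deposited values are raw read counts per miRNA gene, with no normalization. They refer to mm10 and GENCODE M21, per the deposited README. Which aligner and counter were used, and how adapters were trimmed, is not given in the sources used here. The 3 count columns have no header. Judged by the values, the first is unstranded, the next sense and the last antisense, and the sense column was used. The 4 tally rows (unmapped, multimapping, no feature, ambiguous) stayed out of library sizes. They held 87.4% of reads in replicate 1 and 81.9% in replicate 2.

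CPM is the count divided by the library's sense gene counts, times 1000000. A count of 0 entered a ratio as 3 counts. Ratios and intervals (95%, exact conditional Clopper-Pearson) were computed with Python 3.11.15, NumPy 2.4.6, SciPy 1.17.1 and pandas 2.3.3 and checked on simulated counts. With 1 group and 1 library on each side of a ratio, no p-value was computed. Symbols and positions came from GENCODE M21 and matched all 2202 identifiers. Mature sequences came from the RefSeq table (GRCm38.p6), in which 17 of the 20 neighbours in level had an entry. The hairpin was folded with RNAfold 2.7.2. Alternatives used TMM factors of edgeR 4.0.16 and size factors of DESeq2 1.42.0 in R 4.3.3, both from the 305 tested genes.

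The genes named are Mir22, the 12 nearest in rank, the 5 most alike, miRNA genes within 1 Mb, the list members and the neighbours in ratio. Others were named after their values were seen. A list of miRNA genes is not reported here. Mir22 and the lists were chosen with earlier results of these data known.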

Additional observations from a re-analysis of the deposited data

How the results depend on the processing

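Of 41 values recomputed under the alternatives, 22 stayed within a set limit and 19 moved past it. The limit was the spread or interval for levels, ratios, ranks and shares, and a factor of 1.5 for counts of genes. Some outcomes follow from the limits. Leaving out 1 of 2 libraries cannot move the mean level past its SD. The counting interval of the ratio is so narrow that every recomputed ratio moved past it. The tally is therefore not read as a measure of how stable the results are. The ratio of Mir22 kept its direction in each setting in which it was recomputed. Mir22 stayed past a ratio of 2 under every scaling. Its log2 ratio of 1.65 became 1.37 with TMM and 1.23 with DESeq2 size factors, which lower all ratios by 0.28 and 0.42. It became 1.56 with the unstranded column, 1.76 with totals without Mir22 and 2.18 with all reads as the total. Against all reads the mean level was 12043 counts per 1000000 reads. Without either library the level ran from 34676 to 108765 CPM and the rank from 2 to 12. The share of tested genes with a smaller absolute ratio than Mir22 was 77.7% with TMM, 75.7% with DESeq2, 69.3% without a filter and 88.2% at a mean of at least 100 counts. Genes past a ratio of 2 numbered 115 as reported, of which 80.9% were higher in replicate 2. They numbered 294 without a filter (40.5% called higher in replicate 2) and 50 at 100 counts (74%). The unfiltered split gives no direction, since 0 counts in replicate 1 enter as 3 and can outweigh few counts in replicate 2. Of the tested genes past a ratio of 2, 70.1% with TMM, 62.3% with DESeq2 and 94.2% with all reads were higher in replicate 2. At a threshold of 1.5 the genes past it numbered 173, and at 3 they numbered 59. Of the 20 genes nearest in level, 8 passed 1.5 and 2 passed 3. With 10 nearest genes 1 passed 2, and with 40 it was 8. With 40 neighbours, too, 0 had a larger ratio toward replicate 2 than Mir22. With all reads, 4 of the 20 passed 2 toward replicate 2 and 2 toward replicate 1, against 2 and 3 as reported. Replicate 1, with 865419 gene counts, limits the genes of few counts, not Mir22. No paired analysis was possible because there is only 1 group.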

Other observations

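Mir22 and Mir206, the 2 genes of largest gain, made up 62.6% of the summed gain in share of gene counts in replicate 2. For Mir22 this restates the level and ratio for which it was singled out. The summed gain, over the miRNA genes with a larger share of counts in replicate 2, was 21.9 percentage points. Mir22 alone held 7.41 points, or 33.9% of it, and Mir206 held 6.28 points, or 28.7%. Together they took 7.51% of gene counts in replicate 1 and 21.2% in replicate 2. Mirlet7d came next with 1.90 points and Mir149 with 1.02. On the other side, Mir378a held 5.74 points less in replicate 2, Mir143 3.24 less, Mir10b 2.41 less and Mir26b 2.36 less, and these 4 genes made up 62.9% of the summed loss. With Mir22 left out of the totals, the log2 ratios of replicate 2 over replicate 1 were 0.12 higher for every gene.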
